A study of Mus musculus with 8 samples.

Results

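Sorting nexin 5 (Snx5) is a member of the retromer-associated sorting nexins, proteins that bend endosomal membranes and route receptors between endosomes, the Golgi and the cell surface. The lung at the end of gestation is lined by alveolar epithelial type I cells, thin cells across which gas is exchanged, and by type II cells, which secrete surfactant; both face a capillary endothelium across a shared basement membrane rich in type IV collagen and laminin. The comparison described here is that of Snx5-/- with Snx5+/+ lungs that had not taken in air, over all genes and mainly those outside the chromosome of Snx5. It holds 4 of the 8 arrays of the series, 2 Snx5-/- and 2 Snx5+/+, chosen by the title and the genotype of each sample; the free-text description of both Snx5-/- samples names a wild type and was not used.

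Whole lungs of mouse embryos at embryonic day 18.5 (E18.5) were measured on single-colour Illumina MouseRef-8 v2 BeadChips. The Snx5-/- embryos were homozygous for a gene trap that places a β-galactosidase-neomycin cassette in an intron of Snx5; the mice came from 1 trapped embryonic stem cell line, XA155, and had been backcrossed 5 times to C57BL/6. Snx5+/+ embryos carried no trap, and neither non-air group had a treatment. The other 4 arrays were lungs of the same genotypes and day after an air-breathing test, 2 Snx5-/- and 2 Snx5+/+; they entered the same fit to share its estimate of the spread. The study speaks of biological replicates, while the labels do not say how many animals an array holds. In whole-lung RNA, fewer cells of a type and less RNA per cell cannot be told apart.

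Between 47.5% and 49.4% of the 25697 probes were above background on an array, at a detection p-value under 0.01. The 2 Snx5-/- arrays differed from each other with an SD of 0.16 (log2, over tested probes), and the 2 Snx5+/+ arrays with an SD of 0.24. Snx5+/+ replicate 2 stood apart: it differed from the Snx5-/- arrays with SDs of 0.27 and 0.29, whereas Snx5+/+ replicate 1 differed from them with SDs of 0.19 and 0.21. Lung identity held, since 15 of 19 type I cell markers and 21 of 23 endothelial markers on the array were above background on all 4 arrays. Xist was above background on all 4 non-air arrays, and the Y-linked genes Kdm5d and Eif2s3y on none. Uty, also Y-linked, was above background on 1 of the 4, with log2 intensities from 8.01 to 8.22. A second table of the series holds intensities before normalization, whose column labels give air and non-air the other way round from the log2 table; the log2 table under its own labels is used here. Snx5 itself has a pair of probes, neither above background on any non-air array nor bright enough to be tested. ILMN_2706101 had log2 intensities of 7.23 and 7.24 in Snx5-/- lungs, against 7.88 and 7.85 in Snx5+/+ lungs, and ILMN_2602462 had 7.49 and 7.51 against 7.55 and 7.51. The first probe was lower in both Snx5-/- lungs and the second overlapped between the genotypes.

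Limma was run on probes whose mean log2 intensity exceeded 8 in either genotype, and a gene was called when the Benjamini-Hochberg adjusted p of a probe was under 0.05 and its absolute log2 fold change was above 0.35. Log2 fold changes are Snx5-/- minus Snx5+/+ throughout. Of 9390 genes tested, 66 were called. Of these, 23 lie on chromosome 2 with Snx5 in assembly GRCm38.p6, and 16 of the 23 within 30 Mb of it; 18 were lower and 5 higher in Snx5-/- lungs. The 3 with the largest fitted differences were Dstn, which encodes the actin-severing protein destrin, at -5.02 on the log2 scale, Lrrc57, at least 5.00-fold lower, and Rrbp1, at least 3.47-fold lower, followed by Rmdn3, above background in both genotypes and 3.79-fold lower. The other Rmdn3 probe, also above background in both genotypes, overlapped between them and was not called (-0.12, adjusted p = 0.683, limma). "At least" marks a probe not above background in 1 genotype, for which the lowest detected signal stands in as a bound. Where the gene-trapped chromosome segment ends was not tested. All that follows is about genes on other chromosomes, except where a gene is said to lie on chromosome 2.

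Off chromosome 2, 20 genes were lower in Snx5-/- than in Snx5+/+ lungs and 23 were higher, of 8643 tested, which is 0.231% and 0.266%. In every one of these 43 genes both Snx5-/- arrays lay beyond both Snx5+/+ arrays, as they did for 44.6% of all genes tested with 1 probe per gene. The smallest absolute log2 fold change among them was 0.53. The calls rested on both Snx5-/- arrays. Without Snx5-/- replicate 1, 0 genes off chromosome 2 were called lower and 3 higher (limma; 1346 probes had an unadjusted p under 0.05), and without Snx5-/- replicate 2, 0 were lower and 2 higher (874 probes with an unadjusted p under 0.05). Without Snx5+/+ replicate 1, 182 were lower and 400 higher, and without Snx5+/+ replicate 2, 7 were lower and 9 higher. Without 1 of the air arrays, 8 to 14 were lower and 15 to 20 higher. An exact two-sided permutation test of 2 arrays against 2 cannot give a p below 0.333, so the calls depend on the spread that limma pools over genes. The direction of all 43 was the same without each array, which was fixed in advance and adds no support. The arrays of the genotypes did not overlap, and the air arrays do not enter the fold change. Fitted on the 4 non-air arrays alone, 4 genes off chromosome 2 were called lower and 7 higher. Under the labels of the intensities, the arrays of the air lungs by the log2 labels take the non-air names. Ifit3, Il33, Inmt, Cxcl1, Saa3, Scgb3a1 and Hba-x then took the opposite direction, as did Pebp1 with median scaling. These values are the genotype contrast of the air lungs and do not test the direction in non-air lungs.

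**Figure D1:**
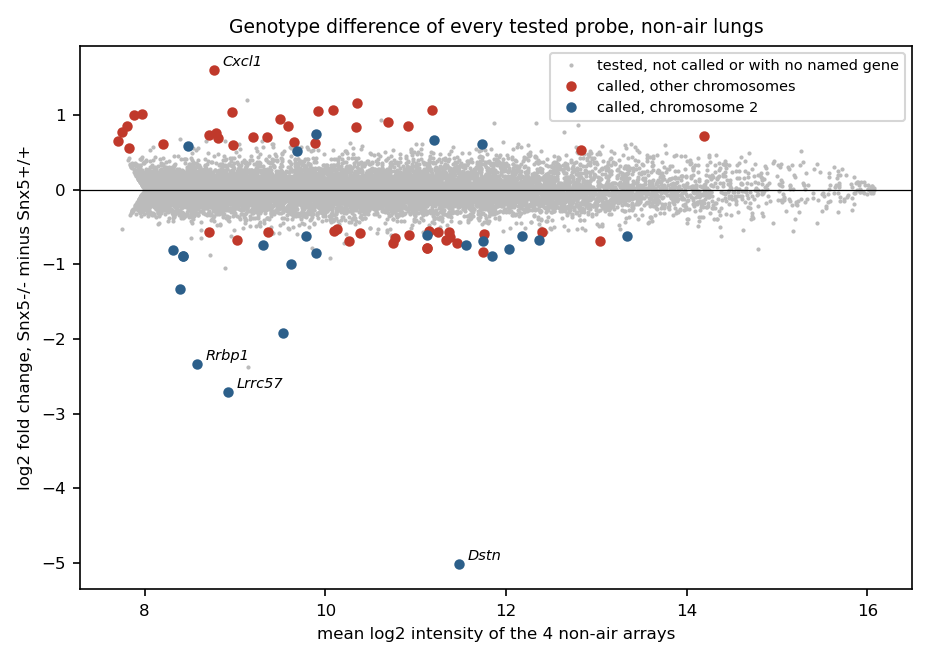
Log2 fold change (Snx5-/- minus Snx5+/+) of every tested probe against its mean log2 intensity over the 4 non-air arrays; grey, probes not called or with no named gene; red, called on other chromosomes; blue, called on chromosome 2. On chromosome 2, Dstn lies far below the rest at -5.02, and Lrrc57 and Rrbp1, not above background in Snx5-/- lungs, have fitted values of -2.71 and -2.34 with 1 unnamed probe between them at -2.38, while Cxcl1 at 1.60 is the highest called gene.

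The genes called lower included proteins of the alveolar surface and its capillaries. Aqp5, an aquaporin of the apical membrane of type I cells, had log2 intensities of 10.72 and 10.74 in Snx5-/- lungs, against 11.40 and 11.62 in Snx5+/+ lungs, at probe ILMN_1259982. At its brighter probe, ILMN_3115472, it had 12.66 and 12.72 against 13.38 and 13.39. Neither probe overlapped between the genotypes, and both were called, with log2 fold changes of -0.78 (SE 0.10, adjusted p = 0.00706, limma) and -0.69 (SE 0.10, adjusted p = 0.0141, limma), or 1.72-fold and 1.61-fold lower. Car4, a carbonic anhydrase anchored on the surface of lung capillary endothelium, had 10.35 and 10.44 in Snx5-/- lungs, against 11.19 and 11.02 in Snx5+/+ lungs. Its levels did not overlap, and it was 1.64-fold lower (log2 fold change -0.71, SE 0.11, adjusted p = 0.0156, limma). Inmt, an indolethylamine N-methyltransferase abundant in lung, had 11.45 and 11.47 against 12.09 and 12.02, a difference of -0.60 (SE 0.10, adjusted p = 0.0199, limma). For Il33, an alarmin cytokine that type II cells of the mouse lung make, the Snx5-/- lungs had 10.92 and 11.08 and the Snx5+/+ lungs 11.58 and 11.76. It was 1.59-fold lower (log2 fold change -0.67, SE 0.12, adjusted p = 0.0398, limma), and the genotypes did not overlap.

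Secreted and matrix proteins formed another part of the lower genes. Htra1, a secreted serine protease, had 10.36 and 10.53 in Snx5-/- lungs, against 10.96 and 11.22 in Snx5+/+ lungs (log2 fold change -0.65, SE 0.12, adjusted p = 0.0339, limma). Its other probe had the same direction with a log2 fold change of -0.39 and was not called (adjusted p = 0.214, limma). C6, a component of the terminal complement complex, had 8.72 and 8.65 against 9.41 and 9.31, and was called at both its probes with log2 fold changes of -0.68 (SE 0.10, adjusted p = 0.0106, limma) and -0.55 (adjusted p = 0.0320). Complement C6 was thus dim but above background on all 4 arrays. Pon1, a paraoxonase carried on lipoproteins, had 11.05 and 11.09 in Snx5-/- lungs and 11.71 and 11.69 in Snx5+/+ lungs (-0.63, SE 0.10, adjusted p = 0.0156, limma). Its replicates nearly coincided in each genotype. Cblif, the cobalamin-binding intrinsic factor known from the stomach, had 10.73 and 10.74 against 11.47 and 11.56 (-0.78, SE 0.10, adjusted p = 0.00543, limma). Smaller called decreases were those of the matrix genes Serpinf1 (-0.56) and Ecm1 (-0.56), the guidance cue Sema3f (-0.56), the adenylyl cyclase Adcy8 (-0.57), the sulfate transporter Slc13a4 (-0.56), the transcription factor Gata2 (-0.57) and the endoplasmic reticulum isomerase Pdia5 (-0.53). Of these, Sema3f and Pdia5 each had a second probe that was lower but not called, at -0.42 and -0.35 (adjusted p = 0.174 and 0.241, limma).

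Most genes of the collagen and laminin list had lower means. The list also holds the nidogen Nid1. Of its 22 tested genes, 20 had a lower mean in Snx5-/- lungs, at a median log2 fold change of -0.29. Over all genes with 1 probe each, the median was 0.00 and the share lower was 49.9%. By this count with 1 probe per gene, over all chromosomes and so with chromosome 2 included, 35 of 9386 genes were called lower (0.373%) and 25 higher (0.266%). One collagen gene passed, Col4a4, which encodes the α4 chain of type IV collagen: it had 10.11 and 10.08 in Snx5-/- lungs, against 10.57 and 10.78 in Snx5+/+ lungs (log2 fold change -0.57, SE 0.10, adjusted p = 0.0371, limma). Its other probe gave the same log2 fold change of -0.57 with a larger SE of 0.12 and was not called (adjusted p = 0.0735, limma). Next in order were Lamb3, a laminin β chain, with -0.53 (adjusted p = 0.0529), Col4a2 with -0.55 (adjusted p = 0.0554), Col6a2 with -0.45 (adjusted p = 0.0972) and the laminin-binding nidogen Nid1 with -0.43 (adjusted p = 0.169, limma), none of which passed. The median was -0.27 against Snx5+/+ replicate 1 and -0.30 against replicate 2, so that this list stood at nearly the same distance from either array. Lamc3, a laminin γ chain called lower with -0.74, lies on chromosome 2 and is not a member of this list.

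Among cell type markers, 14 of 16 type I cell genes had a lower mean in Snx5-/- lungs, at a median log2 fold change of -0.21. Aqp5 was the 1 called. Spock2, a matrix proteoglycan, followed with -0.50 (adjusted p = 0.0688), the receptor gene Ager with -0.44 (adjusted p = 0.101), Pdpn with -0.33 and Emp2 with -0.31 (adjusted p = 0.234 and 0.295, limma). Of 20 type II cell genes, 18 were lower in the mean, at a median of -0.29, which was -0.16 against Snx5+/+ replicate 1 and -0.38 against replicate 2. Il33 and, on chromosome 2, the complement C5 gene Hc (-0.79) were called, while Napsa, a protease that processes surfactant protein B, had -0.39, Muc1 -0.45, Sftpb -0.39 and Fabp5 0.42 (adjusted p = 0.151, 0.159, 0.219 and 0.231, limma). Of 21 endothelial genes, 18 were lower in the mean, at a median of -0.24. Car4 was called, as was Eng on chromosome 2, a co-receptor for transforming growth factor β, with -0.68 (adjusted p = 0.0128, limma). Plvap, which forms the diaphragms of endothelial fenestrae, had -0.51 (adjusted p = 0.0529), the adhesion genes Cdh5 and Pecam1 had -0.44 and -0.49, and Cd93, on chromosome 2, had -0.40 (adjusted p = 0.197, 0.244 and 0.244, limma).

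**Figure D2:**
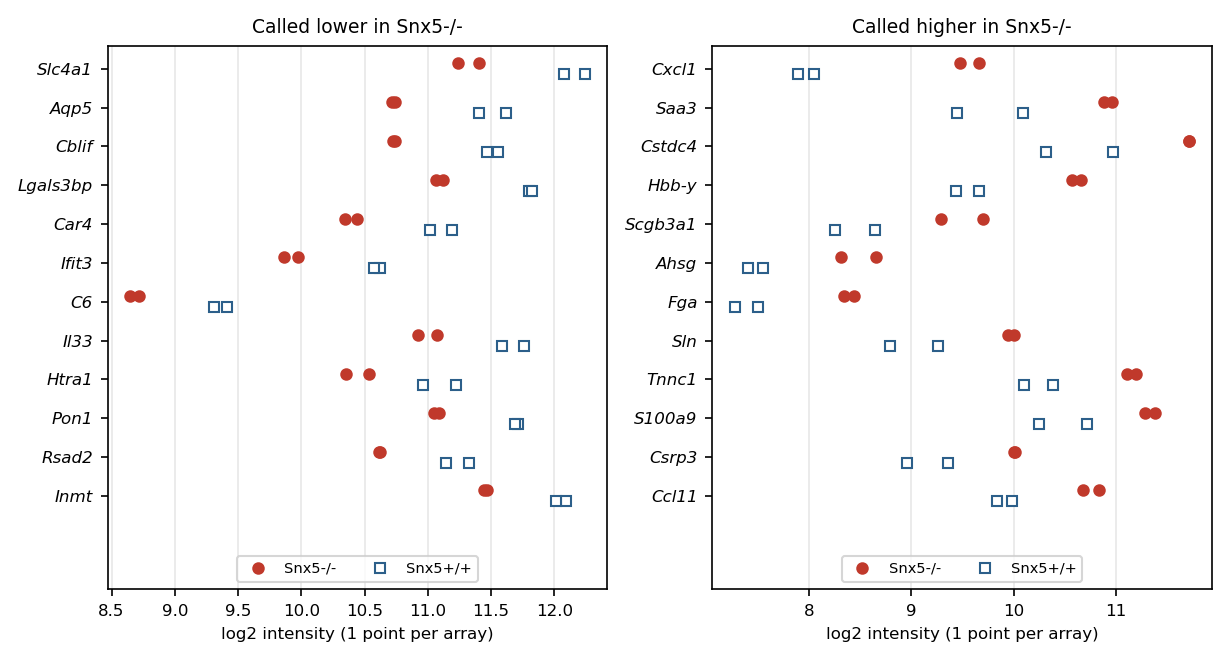
Log2 intensity on each array for the 12 largest called decreases (left panel) and the 12 largest called increases (right panel) off chromosome 2; red circles, the 2 Snx5-/- arrays; blue open squares, the 2 Snx5+/+ arrays. The genotypes do not overlap in any of the 24 genes, which also holds for 44.6% of all genes tested with 1 probe per gene. Cxcl1 has the widest gap, with 9.48 in the dimmer Snx5-/- lung, against 8.05 in the brighter Snx5+/+ lung.

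Interferon-induced genes, which cells switch on through the interferon receptors and the STAT transcription factors, held 3 of the 20 decreases. Lgals3bp, a secreted galectin-binding glycoprotein, had log2 intensities of 11.12 and 11.07 in Snx5-/- lungs, against 11.80 and 11.82 in Snx5+/+ lungs. It was 1.65-fold lower with no overlap (log2 fold change -0.72, SE 0.10, adjusted p = 0.00706, limma). Ifit3, whose product binds foreign RNA together with other Ifit proteins, had 9.97 and 9.86 against 10.62 and 10.58 (-0.68, SE 0.11, adjusted p = 0.0171, limma). The other 2 Ifit3 probes were dim, above background on 1 non-air array each, and were not called (adjusted p = 0.343 and 0.248, limma). Rsad2, which encodes the antiviral enzyme viperin, had 10.63 and 10.62 in Snx5-/- lungs and 11.32 and 11.14 in Snx5+/+ lungs, and was 1.53-fold lower (-0.61, SE 0.10, adjusted p = 0.0206, limma). Of 26 interferon-induced genes tested, 18 were lower in the mean, at a median of -0.21, or -0.18 and -0.11 against Snx5+/+ replicates 1 and 2. Stat2, a subunit of the interferon-activated factor, had -0.45 (adjusted p = 0.0796), Mx2 -0.37 (adjusted p = 0.187) and Ifi27l2a, in the other direction, 0.74 (adjusted p = 0.182, limma). MHC class I presentation genes, many of them interferon-inducible, gave 0 calls among 16 by limma, with 3 lower and 1 higher at an unadjusted p under 0.05, and a median of -0.06.

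Ifit3 and Rsad2 share the core of the interferon-stimulated response element, which was searched for as GAAANNGAAA on both strands in RefSeq promoter windows of GRCm38.p6, from 250 bases before to 50 bases after the start of a gene. The 170 bases before each start are shown because these 2 genes fell together in non-air lungs and carry the element close to the start. In air lungs Ifit3 was called higher (1.07, adjusted p = 0.000284, limma) and Rsad2 lower (-0.53, adjusted p = 0.0188, limma). Capitals mark the matches, read here on the opposite strand. The windows shown are chr19:34583359-34583528 on the plus strand for Ifit3 and chr12:26456453-26456622 on the minus strand for Rsad2.
Ifit3: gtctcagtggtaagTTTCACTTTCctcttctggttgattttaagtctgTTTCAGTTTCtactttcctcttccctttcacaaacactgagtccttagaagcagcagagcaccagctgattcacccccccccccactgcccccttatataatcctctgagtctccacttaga
Rsad2: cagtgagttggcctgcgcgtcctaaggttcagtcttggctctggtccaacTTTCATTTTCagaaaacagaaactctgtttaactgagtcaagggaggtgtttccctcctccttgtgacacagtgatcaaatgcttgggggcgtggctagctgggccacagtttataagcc
Ifit3 had 2 matches and Rsad2 had 1. A match was present in 3.44% of all 32851 promoter windows and in 5 of the 37 called genes off chromosome 2 that have a window, the other 3 being Slc13a4, Saa3 and Hbb-y, of which the last 2 were called higher. Of the 18 interferon-induced genes with a window, 9 held a match, Stat2 among them. A match is a description of letters, and binding was not measured.

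The largest increase was that of Cxcl1. This chemokine attracts neutrophils, and it had log2 intensities of 9.48 and 9.66 in Snx5-/- lungs, against 8.05 and 7.89 in Snx5+/+ lungs, where 1 of 2 arrays was above background. Its Snx5+/+ mean of 7.97 was below the intensity cutoff of 8, so Cxcl1 entered the test only through its Snx5-/- mean. It was 3.04-fold higher (log2 fold change 1.60, SE 0.11, adjusted p = 4.31e-05, limma), and this gene alone among the 43 stayed called at this probe without each of the 4 non-air arrays, with adjusted p between 0.000134 and 0.00244. Saa3, an acute-phase serum amyloid gene made in lung and fat, had 10.97 and 10.88 against 10.09 and 9.44 (1.16, SE 0.18, adjusted p = 0.0156, limma). The genotypes did not overlap, and Snx5+/+ replicate 2 was the lowest array. Ccl11, the eosinophil chemokine eotaxin, had 10.68 and 10.84 in Snx5-/- lungs and 9.99 and 9.84 in Snx5+/+ lungs, and was 1.79-fold higher (0.84, SE 0.11, adjusted p = 0.00592, limma), while its other probe, above background on 1 of the 4 arrays, was not called (adjusted p = 0.437, limma). Nfkbiz, an inducible cofactor of NF-κB, had 13.11 and 13.09 against 12.58 and 12.55 (0.53, SE 0.10, adjusted p = 0.0462, limma). Nfkbiz was a small called difference, at a high level and with close replicates. Beside these, Tnfaip3 and Nfkbia, feedback inhibitors of NF-κB that NF-κB itself induces, had log2 fold changes of 0.57 and 0.62 that did not pass (adjusted p = 0.0596 and 0.0871, limma), and Lbp, which binds bacterial lipopolysaccharide and lies on chromosome 2, had -0.45 (adjusted p = 0.187). Of 16 acute-phase and inflammatory genes 2 were called higher, at a list median of -0.01. Of 17 chemokine and receptor genes 2 were called higher and 13 were higher in the mean, at a median of 0.08 (0.03 and 0.12 against Snx5+/+ replicates 1 and 2).

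The promoter of Cxcl1 is shown since it is the largest increase and carries the κB element that NF-κB proteins recognise, searched for as the 10-base κB consensus on both strands. The window is chr5:90891075-90891244 of GRCm38.p6 on the plus strand, the 170 bases before the start in RefSeq, with the matching letters in capitals.
Cxcl1: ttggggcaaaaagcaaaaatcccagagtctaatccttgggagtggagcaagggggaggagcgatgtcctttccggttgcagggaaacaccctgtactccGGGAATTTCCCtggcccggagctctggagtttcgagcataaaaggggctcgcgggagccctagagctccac
The capitals hold 2 overlapping matches, 1 on each strand. A κB match was present in 8.46% of all promoter windows and in 3 of the 37 called genes with a window, Cxcl1, Car4 and Actn2. Nfkbia and Myl7, not called, and Actc1, called on chromosome 2, also held a κB match. Of 13 acute-phase and inflammatory genes with a window, 4 held one. The CArG box known from muscle promoters was in 1.63% of all windows and in 0 of the 37. Outside these 37, Actc1 and Myl7 held a CArG match.

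Neutrophil genes were mostly higher in the mean. S100a9, a subunit of the antimicrobial calprotectin, had 11.38 and 11.29 in Snx5-/- lungs, against 10.72 and 10.25 in Snx5+/+ lungs. It was 1.81-fold higher (log2 fold change 0.85, SE 0.16, adjusted p = 0.0478, limma) with no overlap. Its partner S100a8 had 0.87 (adjusted p = 0.0728), the cathelicidin gene Camp, above background in Snx5-/- lungs only, was at least 1.31-fold higher (adjusted p = 0.0974), and Retnlg had 0.61 (adjusted p = 0.128) and Ltf 0.36 (adjusted p = 0.224, limma), none past the threshold. Of 12 such genes tested, 9 were higher in the mean, at a median of 0.24, while the defining granule genes Elane, Mpo and Ctsg were above background on 0 of the 4 arrays. The summed intensity of the 12 genes was 36195 and 35066 in Snx5-/- lungs, against 31785 and 28826 in Snx5+/+ lungs; the part of blood or tissue neutrophils in this was not tested.

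Several genes of striated muscle were higher. Tnnc1, the troponin C of heart and slow skeletal muscle, had 11.11 and 11.20 in Snx5-/- lungs, against 10.38 and 10.10 in Snx5+/+ lungs, and was 1.88-fold higher (log2 fold change 0.91, SE 0.13, adjusted p = 0.0122, limma). Sln, which encodes sarcolipin, a regulator of the calcium pump of the sarcoplasmic reticulum, had 9.95 and 10.002 against 9.26 and 8.79 (0.95, SE 0.15, adjusted p = 0.0164, limma). Csrp3, the muscle LIM protein of the sarcomere's Z-disc, had 10.01 and 10.01 against 9.36 and 8.95 (0.85, SE 0.13, adjusted p = 0.0151, limma). A second Csrp3 probe was called with 0.73, and the remaining probe was called while not above background on any of the 4 arrays. The Snx5-/- replicates of all 3 genes were close to each other, and Snx5+/+ replicate 2 was the lowest array for each. Actn2, the sarcomeric α-actinin, with 0.60, and Myl1, a myosin light chain of fast skeletal muscle, with 0.69, were called as well, as was the cardiac actin Actc1 (0.61) on chromosome 2. Of 17 heart muscle genes tested, 16 were higher in the mean and 4 were called, at a median of 0.45 (0.35 against Snx5+/+ replicate 1 and 0.61 against replicate 2), with Myl4 and Myl7, myosin light chains of the atrium, at 0.90 and 0.94 (adjusted p = 0.0530 and 0.0580, limma). Of 7 skeletal muscle genes, 6 were higher in the mean and 1 was called, at a median of 0.41 (0.34 against replicate 1 and 0.54 against replicate 2). Heart tissue and the muscle sleeve of the pulmonary veins both express such genes. The summed intensity of the 17 heart genes was 20476 and 20867 in Snx5-/- lungs, against 14686 and 10979 in Snx5+/+ lungs. Of the 24 heart genes on the array, 9 were above background on none of the 4 arrays, among them the ventricular gene Myl2 and the natriuretic peptide genes Nppa and Nppb, and for skeletal muscle this held for 12 of 18, Acta1, Myh4 and Myod1 among them. Whether more heart or venous muscle had been dissected with the Snx5-/- lungs was not tested. Smooth muscle genes gave 0 calls among 13 by limma (1 lower and 3 higher at an unadjusted p under 0.05), Actg2 coming nearest with 0.64 (adjusted p = 0.0521).

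**Figure D3:**
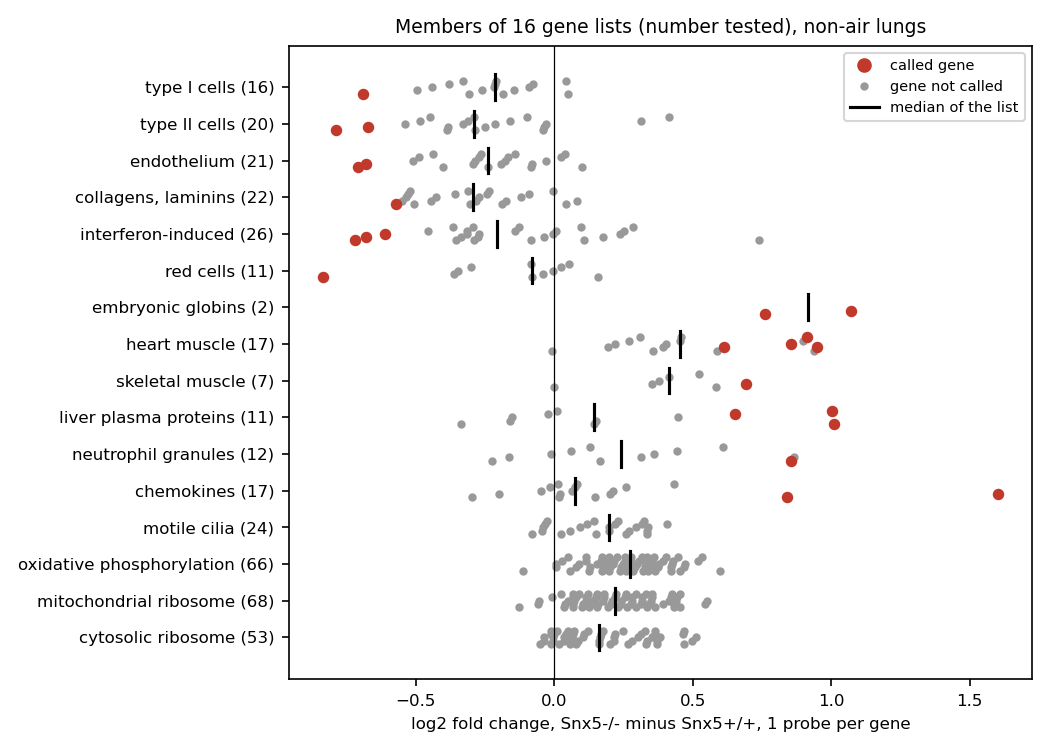
Log2 fold change (Snx5-/- minus Snx5+/+) of each tested member of 16 gene lists, 1 probe per gene; red, called; grey, not called; black bar, median of the list; the number tested stands in brackets. The alveolar type I and type II, endothelial and collagen lists lie mostly left of 0 with medians from -0.29 to -0.21, while heart and skeletal muscle lie right of 0 with medians of 0.45 and 0.41.

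Embryonic globin genes were higher, and 1 gene of the red cell membrane was lower. Hbb-y, an embryonic β-like globin of yolk-sac-derived red cells, had log2 intensities of 10.67 and 10.57 in Snx5-/- lungs, against 9.66 and 9.43 in Snx5+/+ lungs. It was 2.10-fold higher (log2 fold change 1.07, SE 0.13, adjusted p = 0.00543, limma), and its second probe was called with 1.05 (adjusted p = 0.00243, limma). Hba-x, the embryonic α-like globin, had 9.06 and 9.27 against 8.57 and 8.25 and was called with 0.76 (SE 0.14, adjusted p = 0.0441, limma). The third such gene on the array, Hbb-bh1, was above background on no non-air array. Slc4a1, the anion exchanger of the red cell membrane, went the other way: 11.40 and 11.24 in Snx5-/- lungs, against 12.24 and 12.08 in Snx5+/+ lungs, 1.79-fold lower (-0.84, SE 0.12, adjusted p = 0.00814, limma). It was the largest decrease off chromosome 2, and the genotypes did not overlap. Alas2, the red cell enzyme that starts haem synthesis, had -0.36, Trim10 -0.35 and the blood group gene Kel -0.30 (adjusted p = 0.255, 0.282 and 0.303, limma). The adult globin genes Hba-a1 and Hbb-bt had adjusted p of 0.927 and 0.993. The summed intensity of the 11 red cell genes was 99859 and 102196 in Snx5-/- lungs and 103663 and 105808 in Snx5+/+ lungs, with Hba-a1 the brightest.

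A few plasma protein genes known from the liver were faint and higher. Ahsg, which encodes fetuin-A, had 8.31 and 8.65 in Snx5-/- lungs, against 7.40 and 7.54 in Snx5+/+ lungs, where it was not above background. It was at least 1.45-fold higher (adjusted p = 0.00591, limma), and its other probe at least 1.15-fold (adjusted p = 0.00592, limma). Fga, the fibrinogen α chain, had 8.43 and 8.34 against 7.49 and 7.27 and was at least 1.35-fold higher (adjusted p = 0.00333, limma), with its other probe called too, at least 1.22-fold. Apoa1, an apolipoprotein of high-density lipoprotein, was called (adjusted p = 0.0136, limma) but was above background on none of the 4 arrays, so no fold is given. Of 11 liver genes tested, 7 were higher in the mean and 3 were called, at a median of 0.14. The 3 called genes entered the test only through their Snx5-/- means. Their Snx5+/+ means of 7.47 (Ahsg), 7.38 (Fga) and 7.38 (Apoa1) were below the intensity cutoff of 8. These counts therefore depend in part on the filter. Albumin (Alb), α-fetoprotein (Afp) and the fibrinogen β chain (Fgb), which are defining products of the fetal liver, were above background on none of the 4 arrays. The summed intensity of the 11 genes was 21581 and 22150 in Snx5-/- lungs and 22039 and 31486 in Snx5+/+ lungs, with transferrin (Trf) the brightest. Whether liver RNA entered the samples was not tested.

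The remaining increases were of several kinds. Scgb3a1, a secretoglobin of airway secretory cells, had 9.29 and 9.70 in Snx5-/- lungs, against 8.65 and 8.25 in Snx5+/+ lungs (log2 fold change 1.05, SE 0.19, adjusted p = 0.0371, limma). Its other probe, not above background in Snx5+/+ lungs, was at least 1.35-fold higher and was not called (adjusted p = 0.0721, limma). It was the 1 airway secretory gene of 14 tested that passed, in a list whose median was -0.05. Cstdc4, of the stefin family of cysteine protease inhibitors, had 11.72 and 11.72 against 10.98 and 10.32 (1.07, SE 0.18, adjusted p = 0.0199, limma), with Snx5+/+ replicate 2 the lowest array. Rps3, a protein of the small ribosomal subunit, was called at 1 probe (0.72) and not at its brighter probe (0.30, adjusted p = 0.361, limma). The protease inhibitor A2ml1 was called at 1 probe (0.70) and not at its other (0.65, adjusted p = 0.137, limma). Ptn, a growth factor that binds heparin, had 0.64, Pebp1, an inhibitor of Raf kinase signalling, 0.63, and 9530003J23Rik 0.71. Rbp7, a retinol-binding protein not above background in Snx5+/+ lungs, was at least 1.49-fold higher. With a Snx5+/+ mean of 7.90, below the cutoff of 8, Rbp7 too entered the test only through its Snx5-/- mean.

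Genes of energy metabolism and translation were mostly higher in the mean, with few calls, and mainly against 1 of the Snx5+/+ arrays. Of 66 genes for subunits of oxidative phosphorylation, 65 had a higher mean in Snx5-/- lungs, at a median of 0.27. None was called by limma; 13 were higher and 0 lower at an unadjusted p under 0.05. The median was 0.06 against Snx5+/+ replicate 1 and 0.51 against Snx5+/+ replicate 2, and between the 2 Snx5+/+ arrays it was -0.45 for replicate 2 minus replicate 1, more than the genotype difference. Ndufa6, a subunit of complex I, shows it: 14.09 and 14.03 in Snx5-/- lungs, against 13.81 and 13.11 in Snx5+/+ lungs (0.60, SE 0.19, adjusted p = 0.243, limma). For 68 mitochondrial ribosomal proteins the median was 0.22, with 64 higher in the mean and 0 calls by limma (21 higher and 0 lower at an unadjusted p under 0.05), and it was 0.10 against replicate 1 and 0.34 against replicate 2. For 53 cytosolic ribosomal proteins the median was 0.16, at 0.08 and 0.22 against the 2 arrays, and apart from Rps3, called at its dimmer probe, Rpl13a came nearest to a call with 0.51 (adjusted p = 0.0619, limma). Motile cilia genes, the axonemal genes of ciliated airway cells, had 19 of 24 higher in the mean, a median of 0.20, and 0 calls by limma with 6 higher and 0 lower at an unadjusted p under 0.05. Against replicate 1 their median was 0.09 and against replicate 2 it was 0.21.

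**Figure D4:**
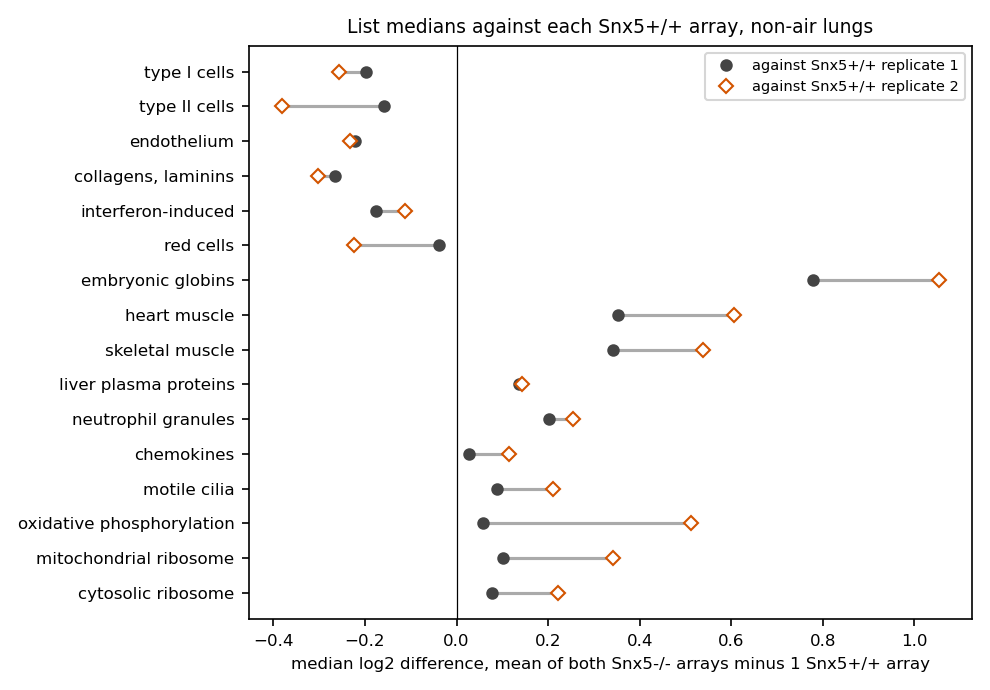
Median log2 difference of each list, taken as the mean of both Snx5-/- arrays minus Snx5+/+ replicate 1 (dark circles) or Snx5+/+ replicate 2 (open diamonds). Endothelium and collagens have nearly the same value against either array, while oxidative phosphorylation has 0.06 against replicate 1 and 0.51 against replicate 2.

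Pathways named in work on Snx5 or on lung maturation had few calls. Of 26 other sorting nexin and retromer genes tested, 0 were called by limma, with 3 higher and 0 lower at an unadjusted p under 0.05 and a median of -0.03; Snx16 and Snx12 came nearest with 0.30 and 0.28 (adjusted p = 0.292 and 0.307, limma). Of 9 genes of epidermal growth factor receptor signalling, whose receptor sorting nexins help to route, 0 were called (1 higher and 0 lower at an unadjusted p under 0.05). Notch genes gave 0 calls among 20 (1 lower, 0 higher at an unadjusted p under 0.05) and lung epithelial transcription factors 0 among 25 (1 lower, 3 higher). Among 17 genes of lung fluid transport Aqp5 was called, and the capillary water channel Aqp1 with -0.39 and the sodium channel subunit Scnn1b with -0.34 did not pass (adjusted p = 0.184 and 0.219, limma). A list of 6 genes that the study names from earlier work on mice mutant in the co-repressor SMRT, 4 of them lower in the mean, held 2 called genes, Lgals3bp and Inmt. Cell cycle genes had a median of 0.10 with 25 of 34 higher in the mean, and unfolded protein response genes a median of -0.15 (-0.09 and -0.27 against Snx5+/+ replicates 1 and 2) with 16 of 20 lower in the mean; in each, 0 were called by limma, with 6 higher and 0 lower in the first and 4 lower and 1 higher in the second at an unadjusted p under 0.05. With the brightest probe standing for each gene, 31 of 49 lists with at least 3 tested genes held no called gene.

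Over all chromosomes, chromosome 2 included, the same genotype contrast in air lungs gave 139 genes lower (1.47% of 9478) and 116 higher (1.22%). Counted in the same way, non-air lungs had 38 lower and 28 higher of 9390. The air arrays also differ in sex-linked genes. The Snx5-/- air lungs expressed the Y-linked genes Kdm5d and Eif2s3y and no Xist, the Snx5+/+ air lungs the reverse. Genotype and sex therefore cannot be told apart there. Of the 43 genes called off chromosome 2 in non-air lungs, 40 were tested in air lungs, 33 with the same direction. Called in the same direction in both were 9 lower genes and 9 higher genes. Slc4a1 had -1.56 in air lungs (adjusted p = 1.85e-05, limma), beside -0.84 in non-air lungs, a difference that was not called (interaction adjusted p = 0.116), and Htra1 had -0.84 and Serpinf1 -0.79 in air lungs, both called. Muscle genes were higher in both: in air lungs Tnnc1 had 1.13, Csrp3 0.98, Sln 0.90, Actn2 0.92 and Myl1 0.83, all called. S100a9 had 0.99 and was called. Embryonic globin genes were not, with 0.46 for Hbb-y and -0.06 for Hba-x (adjusted p = 0.112 and 0.886, limma). Over all chromosomes, chromosome 2 included, 50 genes (0.519% of 9640) had a genotype difference that itself differed between non-air and air lungs.

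**Figure D5:**
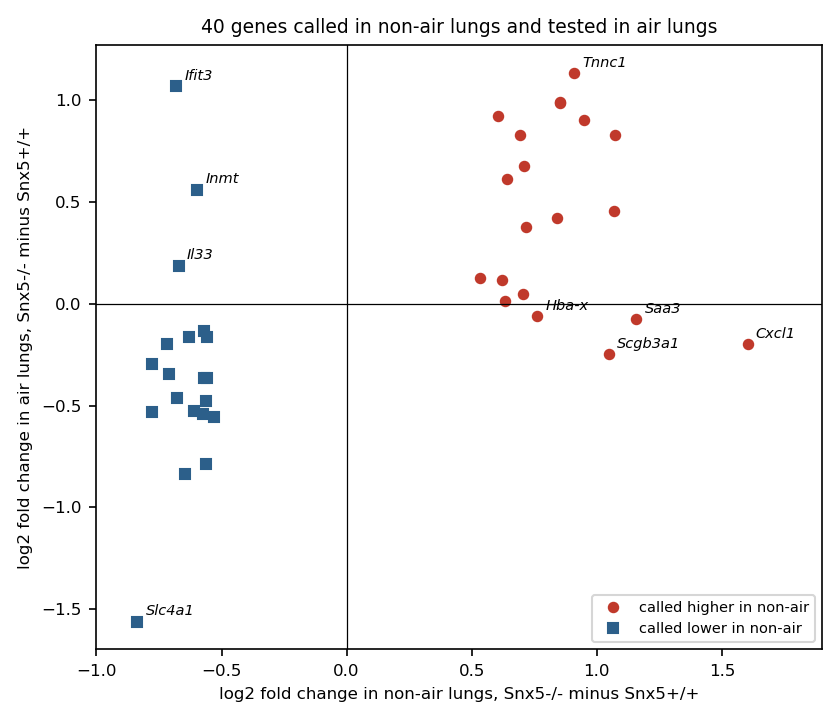
Log2 fold change (Snx5-/- minus Snx5+/+) in air lungs against that in non-air lungs for the 40 genes called off chromosome 2 in non-air lungs and tested in both; red circles, called higher; blue squares, called lower in non-air lungs. Muscle genes such as Tnnc1 lie in the upper right corner, while Ifit3 and Inmt are negative in non-air and positive in air lungs, and Cxcl1 and Saa3 lie near 0 in air lungs at -0.20 and -0.07.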

How the data were processed

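Per the labels and the study's methods, the authors amplified total RNA, transcribed it to cRNA, hybridized it to BeadChips and stained it with Cy3-streptavidin. The authors deposited log2 values, described as quantile normalized, and, in a second table, non-normalized intensity values with detection p-values; the deposited p-value of a probe compares it with background, and the sources used here do not name the software that made that table. The intensity columns follow the log2 columns of the opposite air state (rank correlation at least 0.999751, against at most 0.971712 for others), whereas the detection p-values follow the log2 labels; the log2 table under its own labels was therefore used, and the intensities under theirs as an alternative. The number of per-sample columns not used was 0.

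Contrasts were fitted with limma 3.58.1 in R 4.3.3 (lmFit, eBayes; 8 arrays, 4 groups, no block). Probes with a group mean above 8 in either non-air group were tested (13453). A probe was called at an adjusted p (Benjamini-Hochberg) under 0.05 when its log2 fold change exceeded 0.3531 in size. P-values measure the spread between these arrays. Platform annotation named 1 gene for 23978 probes; chromosomes and promoters came from RefSeq (GRCm38.p6), and 37 of 43 genes had a promoter window. The script was tested on simulated data. The gene lists and the rule for named genes (every gene called off chromosome 2, the 3 largest on it, and in each list the called members and up to 4 more of smallest p) were chosen with earlier results of these data known. For a list, the brightest probe stood for a gene. Replicate numbers do not pair the arrays (correlation of deviations 0.00). Alternatives were other normalizations, filters, variance priors, weights, a replicate block, the methods' t-test and leaving out each array.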

Additional observations from a re-analysis of the deposited data

Results flagged for a closer look

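For 6 genes called off chromosome 2 in non-air lungs, limma's interaction term between genotype and state passed the threshold; values are the log2 fold change (Snx5-/- minus Snx5+/+) in non-air lungs minus that in air lungs. It was 1.80 for Cxcl1 (adjusted p = 0.000205), which had log2 intensities of 8.35 and 8.18 in Snx5-/- air lungs, against 8.41 and 8.51 in Snx5+/+ air lungs. It was -1.75 for Ifit3 (adjusted p = 0.00019), called lower in non-air and higher in air lungs, with 11.05 and 11.17 in Snx5-/- air lungs, against 9.94 and 10.14 in Snx5+/+ air lungs. Inmt, with -1.16 (adjusted p = 0.0021), was likewise called in opposite directions. For plasma protein genes the fitted term was 1.30 for Fga (adjusted p = 0.00297), 1.01 for Ahsg (adjusted p = 0.033) and 0.91 for Apoa1 (adjusted p = 0.0114). These are not measured sizes: Fga and Ahsg were above background in Snx5-/- non-air lungs only and Apoa1 in neither non-air genotype, and all 3 were below the intensity cutoff in air lungs.

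On chromosome 2 the term was -1.28 for Rmdn3, -1.27 for Crls1 and -1.13 for Tmem87a. For Rmdn3 and Crls1 it came from 1 probe each. The other Rmdn3 probe had -0.24 (interaction adjusted p = 0.562, limma). The other Crls1 probes had -0.27, -0.17 and -0.17 (interaction adjusted p = 0.529, 0.658 and 0.793, limma). For Lrrc57 and Rrbp1, not above background in Snx5-/- non-air lungs, the fitted terms of -2.00 and 1.46 are not measured sizes. Rrbp1 was as dim in Snx5-/- air lungs (7.23 and 7.32), so that its term follows the Snx5+/+ lungs, with 9.91 and 9.59 in non-air and 11.07 and 11.07 in air lungs. Snx5-/- air lungs carry transcripts of the Y-linked genes Kdm5d and Eif2s3y, and Snx5+/+ air lungs do not. Sex, state and genotype therefore cannot be told apart in these differences.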

How the results depend on the processing

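Counts of called genes (lower and higher over all chromosomes, then lower and higher off chromosome 2; 38, 28, 20 and 23 in the report) depended on which arrays were used. Leaving out 1 of the 8 arrays gave 5 to 218 lower and 2 to 433 higher genes, and off chromosome 2 0 to 182 lower and 2 to 400 higher. With the 4 non-air arrays alone there were 17, 7, 4 and 7. Of the 43 genes off chromosome 2, 3 remained called by any probe without Snx5-/- replicate 1 and 2 without Snx5-/- replicate 2; all 43 did without Snx5+/+ replicate 1 and 15 without Snx5+/+ replicate 2. Under the labels of the non-normalized intensities, where the arrays of the air lungs take the non-air names, the counts were 140, 117, 121 and 101 with quantile normalization, 118, 89, 100 and 75 with neqc, which pairs these intensities with detection p-values of other arrays, and 166, 82, 141 and 70 with median scaling. Off chromosome 2, 34 genes were lower with 64 added before log2, 34 were lower and 36 higher with no intensity filter, and 35 were lower with an intensity trend in the variance prior. The methods' t-test called 0 genes in each direction after Benjamini-Hochberg (992 probes had an unadjusted p under 0.05), and unadjusted it called 113, 67, 88 and 53. The counts under the labels of the intensities are of other arrays. The cause of the other differences was not tested.

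With the replicate number as a block, 30 genes were lower and 19 higher, and off chromosome 2 13 were lower and 17 higher; 30 of the 43 remained called. The replicate numbers share only a label (correlation of deviations 0.00).

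Of the called genes, 7 changed direction under the labels of the intensities, and Pebp1 did with median scaling there (-0.024). By the log2 labels these are the arrays of the air lungs, so the direction in non-air lungs is not tested by them. Ifit3 had log2 fold changes of 1.07, 1.21 and 1.01 (quantile, neqc, median), Il33 0.19, 0.20 and 0.11, Inmt 0.56, 0.59 and 0.47, Cxcl1 -0.23, -0.40 and -0.23, Saa3 -0.090, -0.10 and -0.16, Scgb3a1 -0.25, -0.41 and -0.24, and Hba-x -0.059, -0.10 and -0.062. In the 7 settings that keep all 8 arrays and the labels and change the offset, filter, prior, weights, block or probe summary, 26 of the 43 genes kept their call in each setting that gave a value. Slide as a block was not run, since the headers name no slides, and the methods' combined permutation test was not run. For genotype folds of probes not above background in 1 genotype, such as those of Fga and Ahsg, only bounds could be given.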
